A study of Homo sapiens with 3 samples.

Results

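The MAGE genes, a family named for melanoma antigens, were read in RNA sequencing libraries of 3 established human prostate cancer cell lines. Members were the protein-coding gene models whose name in the count files begins with MAGE followed by a letter from A to L, and 35 of 58735 models met this rule. PC3 (from a metastasis in bone) and DU145 (from one in the brain) represented castration-resistant prostate cancer (CRPC) in the series design, and LNCAP, an androgen-responsive line from a lymph node metastasis, represented androgen-dependent prostate cancer (ADPC). No treatment or added allele was named for any line, all were grown in medium with fetal bovine serum, and there was 1 library of total RNA per line, so no difference has a replicate check. Each line stands for 1 tumour, and fewer expressing cells cannot be told apart from less RNA per cell.

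All MAGE proteins share a conserved domain, and many bind RING-type E3 ubiquitin ligases and alter which proteins these mark for degradation. The type I genes (MAGEA, MAGEB and MAGEC) lie on the X chromosome, are transcribed in adults mainly in germ cells and placenta, and are re-expressed in many tumours, where peptides of their proteins can be presented to cytotoxic T cells. Methylation of CG pairs in their promoters keeps them silent in most somatic cells, and factors of the ETS family bind MAGEA promoters. The type II genes (MAGED, MAGEE, MAGEF, MAGEH and MAGEL) are transcribed in many normal tissues and are not restricted tumour antigens. By name the members divided into 12 MAGEA, 11 MAGEB, 3 MAGEC, 4 MAGED, 2 MAGEE, 1 MAGEF, 1 MAGEH and 1 MAGEL gene. All but MAGEF1, on chromosome 3, and MAGEL2, on chromosome 15, were on the X chromosome.

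Promoter windows from RefSeq (build GRCh38.p14), 250 bases before to 50 after the annotated start, were found for 31 of the 35 members. They are shown 5′ to 3′ with every CG pair in capitals for MAGEA3 and MAGEA6, the type I genes with the highest levels in PC3 and LNCAP, for MAGEA12 and MAGEA2B, which lie between them on the map, and for MAGEC2 from a separate cluster.
MAGEA3 (chrX:152698544-152698843, + strand): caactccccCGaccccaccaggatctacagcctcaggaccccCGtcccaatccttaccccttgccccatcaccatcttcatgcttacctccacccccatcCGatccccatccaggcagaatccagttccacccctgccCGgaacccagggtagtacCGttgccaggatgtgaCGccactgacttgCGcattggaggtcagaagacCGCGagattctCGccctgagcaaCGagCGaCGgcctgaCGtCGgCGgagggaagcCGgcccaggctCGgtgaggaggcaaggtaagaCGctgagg
MAGEA6 (chrX:152769640-152769939, - strand): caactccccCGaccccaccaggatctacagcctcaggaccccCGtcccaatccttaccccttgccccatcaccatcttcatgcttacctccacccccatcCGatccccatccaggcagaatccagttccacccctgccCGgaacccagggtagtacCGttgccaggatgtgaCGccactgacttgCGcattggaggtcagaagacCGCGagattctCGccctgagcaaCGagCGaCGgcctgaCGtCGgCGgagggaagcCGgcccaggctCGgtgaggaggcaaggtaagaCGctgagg
MAGEA12 (chrX:152733507-152733806, + strand): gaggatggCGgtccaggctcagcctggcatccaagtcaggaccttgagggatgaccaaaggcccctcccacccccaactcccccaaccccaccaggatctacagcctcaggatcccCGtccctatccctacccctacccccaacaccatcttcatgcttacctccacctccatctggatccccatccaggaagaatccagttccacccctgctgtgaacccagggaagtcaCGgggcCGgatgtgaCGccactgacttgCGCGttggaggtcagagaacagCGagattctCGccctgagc
MAGEA2B (chrX:152714378-152714677, + strand): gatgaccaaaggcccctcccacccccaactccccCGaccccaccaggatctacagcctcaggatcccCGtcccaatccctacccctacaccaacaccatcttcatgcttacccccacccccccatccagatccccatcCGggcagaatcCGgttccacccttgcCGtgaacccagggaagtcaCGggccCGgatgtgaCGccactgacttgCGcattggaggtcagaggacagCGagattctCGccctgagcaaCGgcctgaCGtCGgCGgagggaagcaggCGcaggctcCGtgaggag
MAGEC2 (chrX:142205241-142205540, - strand): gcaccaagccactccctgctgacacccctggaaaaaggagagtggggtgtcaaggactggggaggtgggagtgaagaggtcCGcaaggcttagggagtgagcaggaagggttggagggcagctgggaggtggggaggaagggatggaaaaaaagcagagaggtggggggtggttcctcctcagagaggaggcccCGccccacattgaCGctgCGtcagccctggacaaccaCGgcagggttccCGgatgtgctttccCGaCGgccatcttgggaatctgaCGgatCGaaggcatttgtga

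The windows of MAGEA3 and MAGEA6 were identical over all 300 bases. Against them the aligned windows of MAGEA2B, MAGEA12 and MAGEC2 had 251, 203 and 150 identical bases. Each window was placed by the annotated start of its gene, and those of MAGEA2B and MAGEA12 began farther upstream in the matching sequence. The MAGEA12 window thus ended before the CG-rich end of the MAGEA3 window. Numbers of identical bases and of CG pairs therefore compare partly unlike stretches of these promoters. MAGEA3 and MAGEA6 each had 19 CG pairs, MAGEA2B 17, MAGEC2 10 and MAGEA12 9, against a median of 14 over all 35116 windows. The letters CCGGAA, a core that ETS factors can bind, were searched on both strands (TTCCGG on the other), and the CG within them is also one of the counted pairs. They stood at position 138 from the 5′ end in MAGEA3 and MAGEA6 and were not found in the other windows shown. Other letters that ETS factors may bind were not searched, and the windows of MAGEA12, MAGEA2B and MAGEC2 hold the similar CCGGAT. In all, 5 of the 31 member windows and 17.2% of all windows held CCGGAA on either strand. Methylation and factor binding were not measured in these files.

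Near copies limit how finely the members can be read. In GENCODE 29 the encoded proteins of MAGEA2 and MAGEA2B, of MAGEA9 and MAGEA9B, and of MAGED4 and MAGED4B were identical, and those of MAGEA3 and MAGEA6 shared 301 of 314 residues. Of all 50-base words in MAGEA3 transcripts, 56.5% also occurred in another gene, almost all of them in MAGEA6, and the share was 34.9% for 100-base words. For MAGEA6 these shares were 53.9% and 33.0%. They were 13.8% and 3.54% for MAGEA12, and 0.66% and 0 for MAGEA1. MAGED4 shared 99.0% of its 50-base words and MAGEA2 96.4%. MAGEC1, MAGEC2, MAGED1, MAGED2, MAGEE1, MAGEF1 and MAGEH1 shared under 2% at either length. Neither the read length nor the handling of reads with several matches is stated in the labels.

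**Figure D1:**
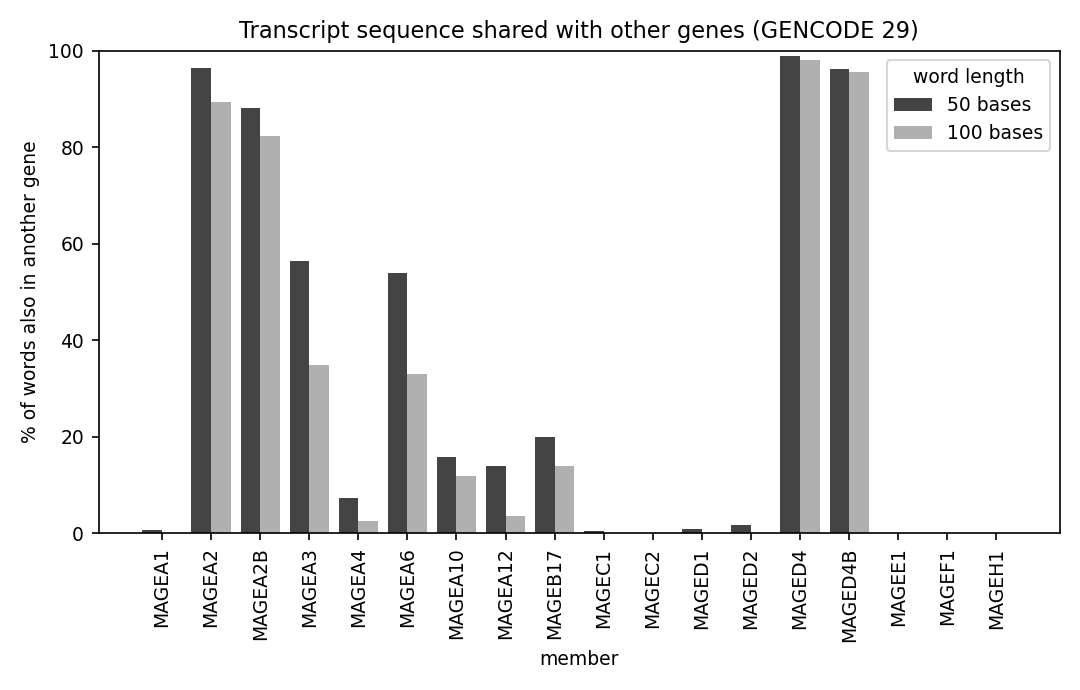
Percentage of each member's 50-base (dark) and 100-base (light) transcript words that also occur in another gene of GENCODE 29, for the 18 compared members. MAGED4, MAGED4B, MAGEA2 and MAGEA2B share over 80% at both lengths, MAGEA3 and MAGEA6 between 33.0% and 56.5%.

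The libraries held 15319045 to 15878546 counts, so a count of 0 allows up to 3 counts, or 0.191 to 0.196 normalised CPM (a count scaled to library size by TMM). Genes that tell the lines apart followed their labels: KLK3, which encodes prostate-specific antigen, had no counts in PC3 and DU145 and 35507 in LNCAP, and CTNNA1, the alpha-catenin gene that PC3 lacks, had 33 counts in PC3, 7934 in DU145 and 5664 in LNCAP. The epithelial gene KRT8 was present in each. Of 12 markers of leukocytes, endothelium and stroma, 5 were at 0 in PC3, 5 in DU145 and 4 in LNCAP, and their summed level was 21.7, 3.25 and 12.3 CPM. PECAM1 made up most of this sum in PC3 and VWF in LNCAP, and their part in the results was not tested. Of 13 germ cell and testis genes, 6, 8 and 7 were at 0 in PC3, DU145 and LNCAP, and the summed level was 170, 15.8 and 32.4 CPM, most of it from SOX9, which epithelial cells also express.

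All 35 members together had 411 normalised CPM in PC3, 247 CPM in DU145 and 809 CPM in LNCAP. The libraries differed most in the type I genes, which had 458 counts in PC3, 6 in DU145 and 6435 in LNCAP. As shares of all counts these were 29.9 unscaled CPM in PC3 (95% Clopper-Pearson interval 27.2 to 32.8), 0.378 CPM in DU145 (0.139 to 0.822) and 418 CPM in LNCAP (408 to 428). Summed type I counts were thus 13.7-fold lower in PC3 than in LNCAP (12.5 to 15.1) and 1075-fold lower in DU145 than in LNCAP (494 to 2930). Type II genes summed to 381 CPM in PC3, 246 CPM in DU145 and 398 CPM in LNCAP. Type I genes therefore held 7.29% of the MAGE counts in PC3, 0.155% in DU145 and 50.9% in LNCAP. These intervals, and all those below, cover counting error only.

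**Figure D2:**
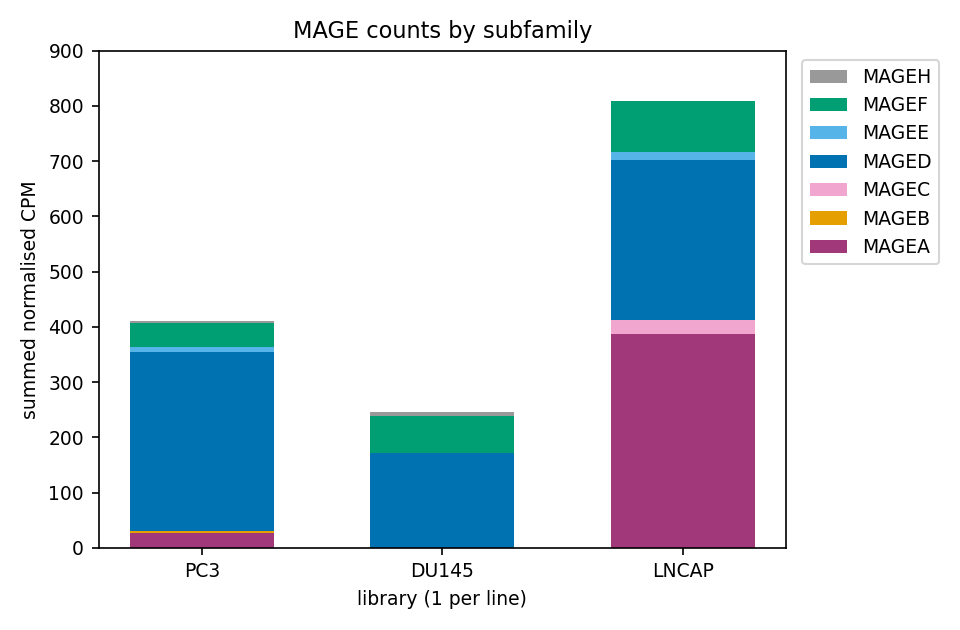
Stacked bars of summed normalised CPM per MAGE subfamily in the 3 libraries, 1 per line. The MAGEA segment reaches 387.3 CPM in LNCAP and 27.0 CPM in PC3 and cannot be seen in DU145, while MAGED and MAGEF segments are present in all 3.

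Of the 35 members, 18 reached 1 CPM in at least 1 library and were compared, 11 of type I and 7 of type II. A further 8 had counts but stayed under 1 CPM, and 9 had no counts in any library. Most type I members passed this filter through LNCAP alone, so the direction of their difference from the other lines followed from the filter. MAGEB17, MAGED4 and MAGED4B passed it through PC3 alone, and MAGEH1 through PC3 and DU145. None of these could therefore be called lower in PC3 than in LNCAP. A member was called when the ratio of scaled counts, with 0.5 counts added to each library, was at least 4-fold and its 95% counting interval excluded a ratio of 1.

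In PC3 against LNCAP, 10 of the 18 compared members were called lower and 4 higher, where 13.3% of all 18025 compared genes were called lower, 13% higher and 26.3% either way. All 10 lower members were of type I, and the 4 higher were MAGEB17, MAGED4, MAGED4B and MAGEH1. With near copies summed as 1 unit, 8 were called lower and 3 higher. The median log2 ratio was -3.24 for the 18 members (-3.29 with members lacking counts set to 3 counts), -7.05 for type I (-5.14) and 0.22 for type II, against -0.01 for all genes compared. In DU145 against LNCAP, 11 members were called lower and 1 higher, beside 12.1% lower, 13.7% higher and 25.8% either way of all genes. The lower members were the 8 MAGEA genes compared, MAGEC1, MAGEC2 and the type II gene MAGEE1, and the higher member was MAGEH1. Summing near copies left 9 lower and 1 higher. The medians were -5.69 for the 18 members (-3.96 with bounds), -8.63 for type I (-6.04) and -0.45 for type II, against 0.00 for all genes. Both comparisons use the same LNCAP library. Most type I members had passed the filter through LNCAP alone, so their lower calls and medians followed in part from it. Against the shares and medians of all genes they are therefore no evidence of a shift of the whole family.

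**Figure D3:**
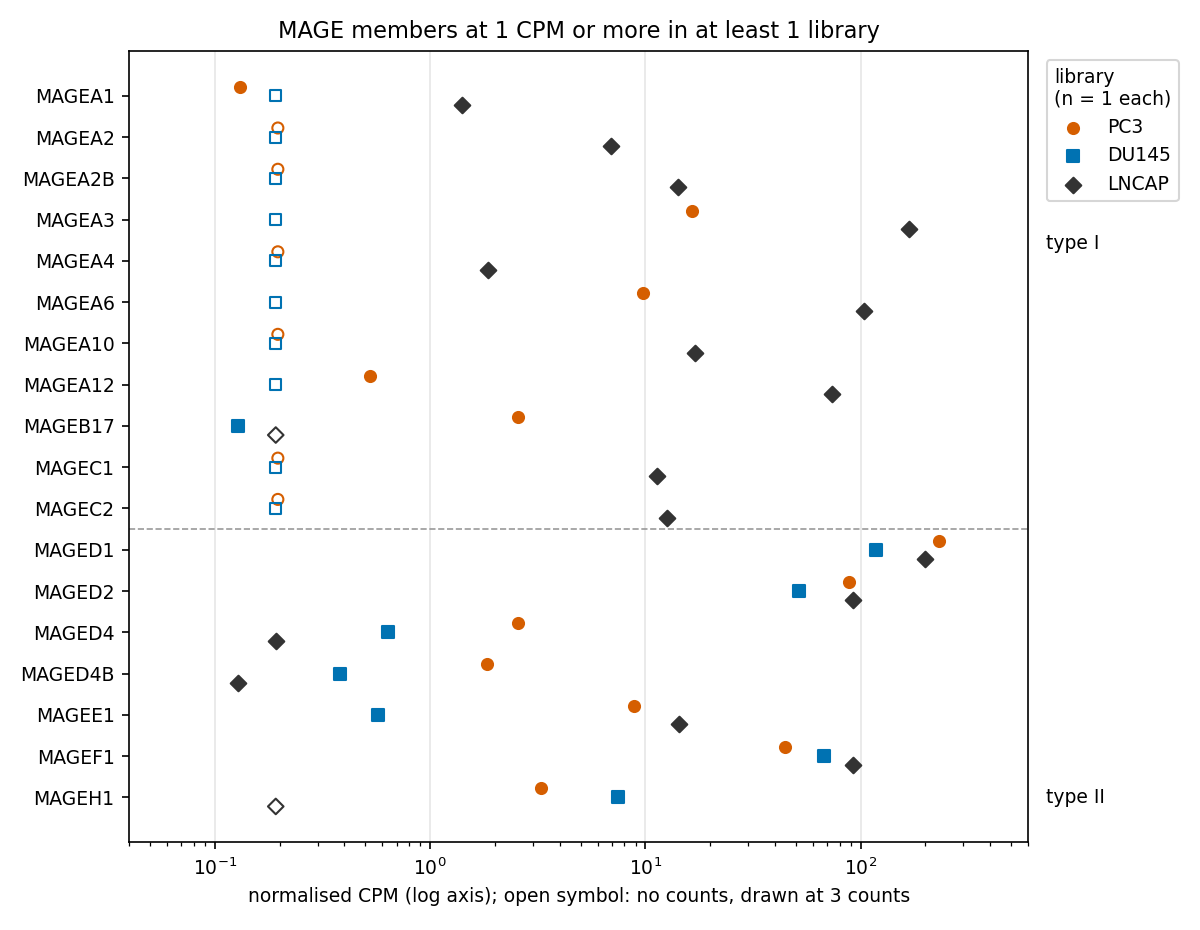
Normalised CPM (log axis) of the 18 compared members in PC3 (circles), DU145 (squares) and LNCAP (diamonds), 1 library each, with open symbols at 3 counts where a library had none. LNCAP is highest for the 8 MAGEA and 2 MAGEC genes shown, and the type II genes MAGED1, MAGED2 and MAGEF1 differ by at most 2.06-fold between lines.

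MAGEA3 (ENSG00000221867, chromosome X, 152698752 to 152702347, + strand, GRCh38) encodes an antigen that has been a target of cancer vaccines and that binds the ligase TRIM28. It had 252 counts in PC3, none in DU145 and 2609 in LNCAP, which is 16.5, 0 and 167 normalised CPM. LNCAP was thus highest, PC3 intermediate and DU145 without a read. MAGEA3 was 10.1-fold lower in PC3 than in LNCAP (95% interval 8.89 to 11.6) and at least 872-fold lower in DU145 than in LNCAP. By the authors' FPKM, which divides by gene length, MAGEA3 ranked 5011th of 19951 protein-coding genes in PC3 and 281st in LNCAP.

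MAGEA6 (ENSG00000197172, chromosome X, 152766136 to 152769747, - strand), whose protein is nearly that of MAGEA3, had 149 counts in PC3, none in DU145 and 1629 in LNCAP. It was 10.7-fold lower in PC3 than in LNCAP (9.03 to 12.7) and at least 544-fold lower in DU145 than in LNCAP. The order of the lines was that of MAGEA3. Within a library, MAGEA3 had 1.69 times the counts of MAGEA6 in PC3 (1.38 to 2.09) and 1.60 times in LNCAP (1.505 to 1.70), so this ratio did not differ between the lines beyond counting error. Because reads may be shared, the sum of both is the safer value: 401 counts in PC3, none in DU145 and 4238 in LNCAP, 10.3-fold lower in PC3 than in LNCAP (9.33 to 11.5). MAGEA3 and MAGEA6 held 401 of the 412 MAGEA counts of PC3.

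MAGEA12 (ENSG00000213401, chromosome X, 152733779 to 152737669, + strand), which lies between them on the map, had 8 counts in PC3, none in DU145 and 1152 in LNCAP. It was 141-fold lower in PC3 than in LNCAP (71.2 to 327), a larger distance than that of MAGEA3, whose interval does not overlap with it. In counts, MAGEA3 stood 31.5 times above MAGEA12 in PC3 (15.7 to 73.8) but 2.26 times above it in LNCAP (2.11 to 2.43). The pseudogene model CSAG4 overlaps MAGEA12 on the same strand and had 37 counts in LNCAP and none in the other lines.

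MAGEA2 and MAGEA2B, copies with identical proteins, had no counts in PC3 or DU145, and 108 and 221 counts in LNCAP. Their sum of 329 counts in LNCAP put them at least 107-fold lower in PC3 and at least 110-fold lower in DU145. MAGEA10, an antigen gene outside this block, had no counts in PC3 or DU145 and 267 in LNCAP, at least 87.0-fold lower in PC3 and at least 89.2-fold lower in DU145. The MAGEA genes other than MAGEA3 and MAGEA6 together had 11 counts in PC3, 3 in DU145 and 1817 in LNCAP, so that they were 162-fold lower in PC3 than in LNCAP (90.05 to 324) and 607-fold lower in DU145 than in LNCAP (207 to 2946). This sum stood farther from LNCAP in PC3 than that of MAGEA3 and MAGEA6. That follows in part from the split itself, since MAGEA3 and MAGEA6 held 401 of the 412 MAGEA counts of PC3. The farther distance was not shown for each gene in the sum, since MAGEA12 gave 1152 of the 1817 counts in LNCAP. MAGEA1, described next, was 10.8-fold lower in PC3, near MAGEA3. Its interval (2.64 to 94.4) was too wide to tell the distance of MAGEA3 from that of MAGEA12.

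The remaining MAGEA genes were low in each line. MAGEA4, whose protein stabilises the DNA damage ligase RAD18, had no counts in PC3 or DU145 and 29 in LNCAP, and was at least 9.45-fold lower in PC3 and at least 9.69-fold lower in DU145. MAGEA1, the founding member of the family, had 2 counts in PC3, none in DU145 and 22 in LNCAP, 10.8-fold lower in PC3 than in LNCAP (2.64 to 94.4). MAGEA8 had 1, 2 and 15 counts in PC3, DU145 and LNCAP and stayed under the 1 CPM filter. MAGEA11, which encodes a coregulator of the androgen receptor, had no counts in PC3 or DU145 and 3 in LNCAP, a count too low for a fold. MAGEA9 had no counts in any library, and its copy MAGEA9B had 1 count, in DU145.

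MAGEC2, whose protein binds and activates TRIM28, had no counts in PC3 or DU145 and 197 in LNCAP, at least 64.2-fold lower in PC3 and at least 65.8-fold lower in DU145. MAGEC1 had no counts in PC3 or DU145 and 178 in LNCAP, at least 58.0-fold lower in PC3 and at least 59.5-fold lower in DU145. Both lie on chromosome X apart from the MAGEA genes (141903894 to 141909388 for MAGEC1, 142202345 to 142205290 for MAGEC2), and neither has a near copy. MAGEC3, their neighbour, had 2 counts in PC3, 1 in DU145 and 2 in LNCAP.

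The MAGEB genes on the short arm of the X chromosome were almost silent. MAGEB1, MAGEB2, MAGEB3, MAGEB4, MAGEB5, MAGEB6B and MAGEB16 had no counts in any library. MAGEB6, MAGEB10 and MAGEB18 had at most 3 counts in a library. MAGEB17 had 39 counts in PC3, 2 in DU145 and none in LNCAP, so it was at least 13.3-fold higher in PC3 than in LNCAP and 20.0-fold higher in PC3 than in DU145 (5.18 to 171). The antisense model AC078993.1 overlaps MAGEB17 and had 1258 counts in PC3, 8 in DU145 and 18 in LNCAP. It held 20.0% of the 50-base words and 14.0% of the 100-base words of MAGEB17. Without known strand use, reads from this shared part cannot be told apart.

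**Figure D4:**
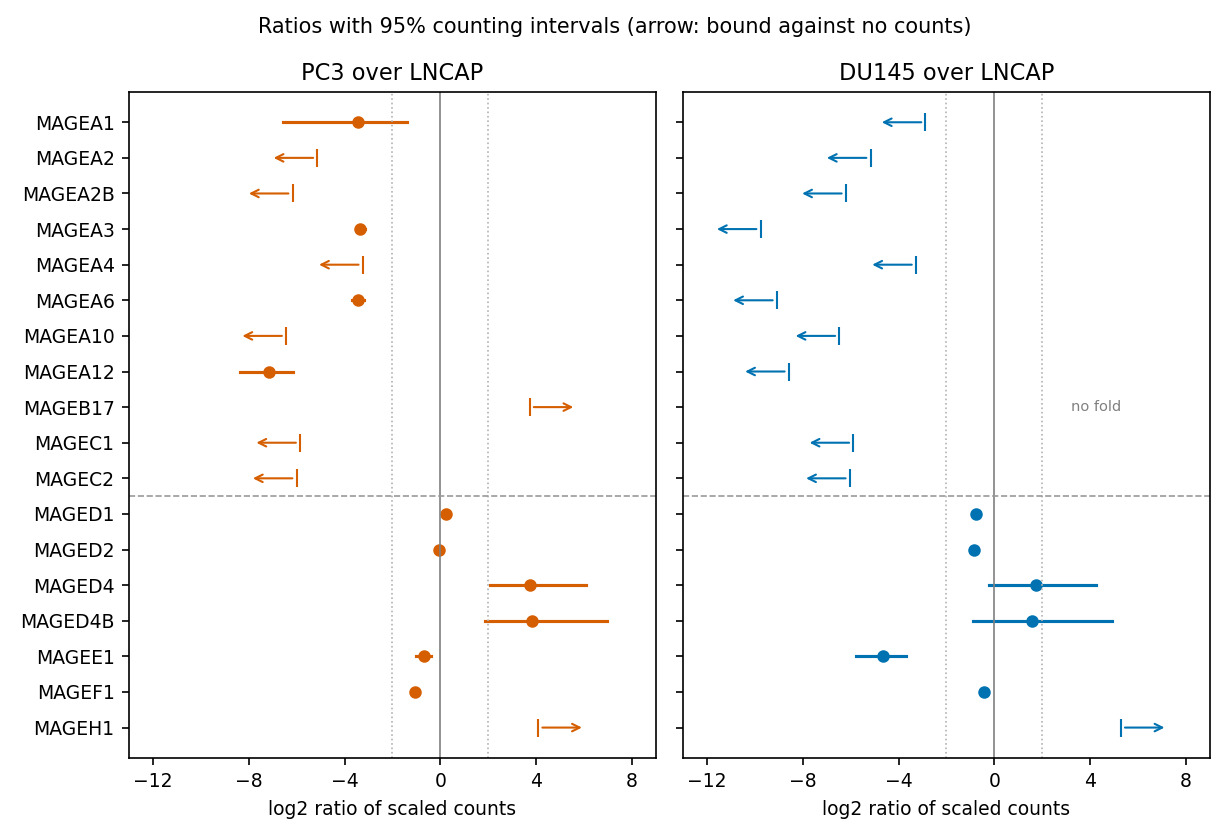
Log2 ratios of scaled counts for the 18 compared members in PC3 over LNCAP (left) and DU145 over LNCAP (right), with points and 95% counting intervals, or bars with arrows for bounds where 1 library had no counts. Dotted lines mark 4-fold. MAGEA3, MAGEA6 and MAGEA12 are the type I genes with over 3 counts in both PC3 and LNCAP, at 10.1-fold, 10.7-fold and 141-fold lower in PC3.

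Of the 7 type II members compared, MAGED1, MAGED2 and MAGEF1 were called in no comparison of lines, and MAGED4, MAGED4B, MAGEE1 and MAGEH1 in at least 1. MAGED1, an adaptor of neurotrophin receptor signalling that binds the ligase PJA1, had 231 CPM in PC3, 118 CPM in DU145 and 199 CPM in LNCAP. MAGED2, a gene needed for salt transport in the fetal kidney, had 88.6 CPM in PC3, 51.5 CPM in DU145 and 92.3 CPM in LNCAP. DU145 was lowest for both, 1.68-fold below LNCAP for MAGED1 (1.58 to 1.78) and 1.79-fold for MAGED2 (1.64 to 1.96). MAGED2 differed between PC3 and LNCAP by less than counting error (1.04-fold lower in PC3, 0.966 to 1.12), while MAGED1 was 1.16-fold higher in PC3 (1.11 to 1.22). MAGEF1, which encodes a partner of the ligase NSMCE1, had 44.7 CPM in PC3, 67.5 CPM in DU145 and 92.2 CPM in LNCAP. It was 2.06-fold lower in PC3 than in LNCAP (1.88 to 2.26) and 1.37-fold lower in DU145 than in LNCAP (1.26 to 1.48). By length-scaled level MAGEF1 was the highest MAGE gene in DU145 (41.2 FPKM), MAGED1 in PC3 (38.1 FPKM) and MAGEA3 in LNCAP (91.6 FPKM).

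MAGEH1 and MAGEE1 went opposite ways in DU145 against LNCAP. MAGEH1, a small gene (219 residues) without a near copy, had 50 counts in PC3, 117 in DU145 and none in LNCAP. Against LNCAP it was higher by at least 17.0-fold in PC3 and by at least 38.9-fold in DU145, and 2.28-fold lower in PC3 than in DU145 (1.63 to 3.25). MAGEE1, which encodes a protein that binds dystrobrevin, had 135 counts in PC3, 9 in DU145 and 224 in LNCAP. It was 24.9-fold lower in DU145 than in LNCAP (12.9 to 55.3) and 1.62-fold lower in PC3 than in LNCAP (1.30 to 2.02). DU145 was thus the low library for MAGEE1 and LNCAP for MAGEH1.

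MAGED4 and MAGED4B cannot be separated, since nearly all of their sequence is shared. MAGED4 had 39, 10 and 3 counts and MAGED4B 28, 6 and 2 counts in PC3, DU145 and LNCAP. On FPKM with 0.1 added, MAGED4B in PC3 against LNCAP lost its call, at a log2 ratio of 1.90. The sum of both copies was 13.7-fold higher in PC3 than in LNCAP (5.59 to 43.6), 3.19-fold higher in DU145 than in LNCAP (1.12 to 11.1) and 4.29-fold higher in PC3 than in DU145 (2.46 to 7.94). MAGEE2 had 1 count in PC3, none in DU145 and 2 in LNCAP. MAGEL2, an imprinted gene of the Prader-Willi region, had no counts in any library.

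PC3 and DU145, both of the castration-resistant class, also differed from each other. In PC3 against DU145, 6 of 18 members were called higher and none lower, where 8.54% of all compared genes were called higher, 10.6% lower and 19.1% either way. These were MAGEA3 at least 86.1-fold, MAGEA6 at least 50.9-fold, MAGEB17, MAGEE1 at 15.4-fold (7.86 to 34.4), MAGED4B at 4.78-fold (1.94 to 14.1) and MAGEA12, from 8 counts against none. The call of MAGEA12 rests on the 0.5 added counts, since against 3 counts it was at least 2.73-fold higher, which is under 4-fold. MAGEA12 and MAGED4B both lost this call with 5 counts added, at log2 ratios of 1.41 and 1.62. MAGED4 lay just under the 4-fold line. Summing near copies left 5 called higher and none lower. The median log2 ratio was 0.87 for the 18 members (0.41 with bounds), against 0.02 for all genes. MAGEA2, MAGEA2B, MAGEA4, MAGEA10, MAGEC1 and MAGEC2 had no counts in either library and could not be called. MAGEB17, MAGED4 and MAGED4B had passed the filter through PC3 alone, so their direction followed from it.

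With PC3 and DU145 taken as 2 libraries of the class CRPC and LNCAP as the 1 library of ADPC, edgeR's quasi-likelihood test had 1 residual degree of freedom. With Benjamini-Hochberg adjustment it called 0 of 18025 genes (0% of those tested) and no member, and 969 genes higher and 777 lower had an unadjusted p under 0.05. Among members, 6 were lower and 1 higher at that level. MAGEA10 had the smallest edgeR adjusted p of the members, 0.341 at a fitted log2 ratio of -11.05, which rests on no counts in either CRPC library. MAGEA3 had an edgeR adjusted p of 0.676 and MAGEA6 of 0.665, where PC3 and DU145 differed by at least 86.1-fold and at least 50.9-fold. DESeq2 called 7 members at an adjusted p under 0.05 (MAGEA2, MAGEA2B, MAGEA10, MAGEA12, MAGEC1 and MAGEC2 lower, MAGEH1 higher) and 1298 genes in all, and limma-voom called 0 (477 genes higher and 857 lower at an unadjusted p under 0.05). The test takes the difference between unlike lines as the spread within a class.

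The map around the MAGEA genes was read in order. Between MAGEA9B and MAGEA1 (chromosome X, 149581653 to 153183880) lie 40 protein-coding genes, 28 of them not MAGE, and 18 of these 28 reached 1 CPM. Of these 18, 2 were called higher and 5 lower in PC3 than in LNCAP, and 4 higher and 5 lower in DU145 than in LNCAP. Either way, 26.3% and 25.8% of all compared genes were called. GABRE, CSAG1, CSAG2 and CSAG3 were lower in both lines, PNMA6A in PC3 and GABRA3 in DU145. GABRE, which lies between MAGEA4 and MAGEA10, had no counts in PC3 or DU145 and 73 in LNCAP. Like the CSAG genes, it reached 1 CPM in LNCAP alone. Ordered by the highest CPM each reached in any of the 3 libraries, the leading neighbours were HMGB3, CD99L2, VMA21, ZNF185, MTMR1 and CETN2, and each had counts in every line. HMGB3, a chromatin protein gene, had 106 CPM in PC3, 353 CPM in DU145 and 52.6 CPM in LNCAP. CD99L2, its neighbour, was also higher in DU145 than in LNCAP (4.90-fold, 4.45 to 5.41). ZNF185, a LIM domain gene, had 83.5 CPM in PC3, 76.0 CPM in DU145 and 4.54 CPM in LNCAP, and so was lowest where the MAGEA genes were highest. CETN2, the centrin gene next to MAGEA6, had 41.2, 21.3 and 26.4 CPM in PC3, DU145 and LNCAP.

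The CSAG genes, cancer-testis genes that lie among MAGEA3, MAGEA12 and MAGEA6, were also highest in LNCAP. CSAG1 had 8 counts in PC3, none in DU145 and 313 in LNCAP, and was 38.3-fold lower in PC3 than in LNCAP (19.2 to 89.4). CSAG2 and CSAG3 had no counts in PC3 or DU145, and 105 and 232 in LNCAP. In PC3 the reads of this block thus fell on its 2 outer genes, MAGEA3 and MAGEA6, with 8 each on MAGEA12 and CSAG1 and none on CSAG2, CSAG3, MAGEA2 and MAGEA2B. Outside it GABRA3, a receptor subunit gene between MAGEA10 and MAGEA3 that was singled out after its values were seen, had 142 counts in PC3, none in DU145 and 72 in LNCAP.

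**Figure D5:**
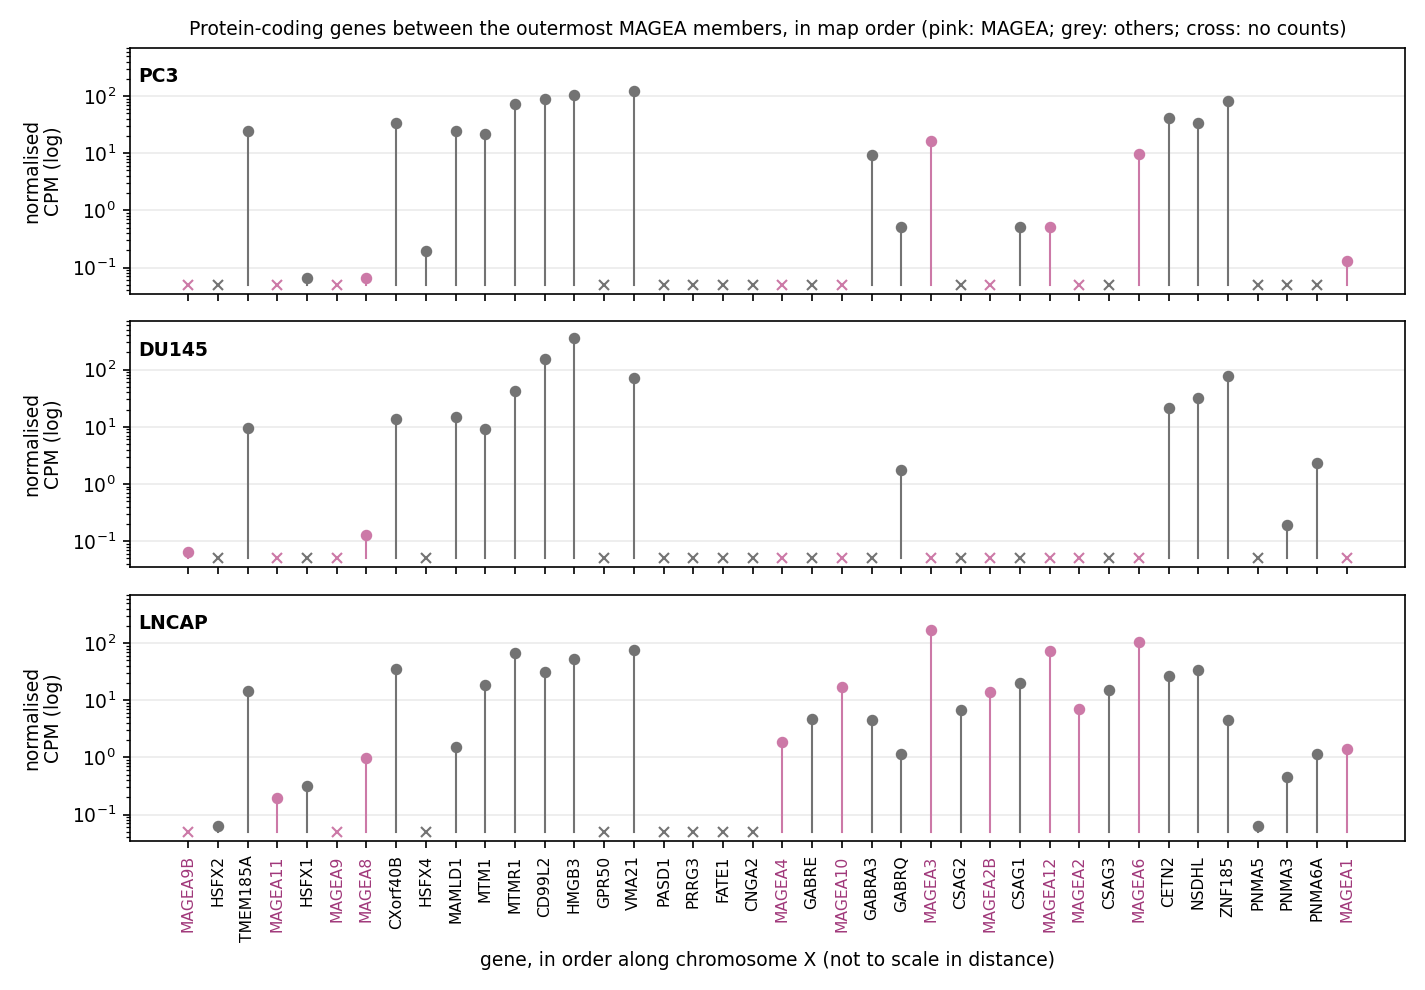
Normalised CPM (log axis) of the 40 protein-coding genes between the outermost MAGEA members in map order, with MAGEA genes in pink, other genes in grey and a cross for no counts, in PC3, DU145 and LNCAP (top to bottom). In LNCAP the block from MAGEA4 to MAGEA6 is filled, in PC3 MAGEA3 and MAGEA6 stand at 16.5 and 9.75 CPM, and in DU145 no MAGEA gene has over 2 counts, while HMGB3, VMA21 and CETN2 are present in each.

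Other cancer-testis genes of the X chromosome were mostly silent, and 9 of 73 found in the files reached 1 CPM. Of the 9, 7 (CSAG1, CSAG2, CSAG3, DDX53, GAGE1, GAGE2A and VCX) reached it in LNCAP alone and 2 (CT83 and XAGE1B) in DU145 alone, so the direction of their differences followed from this filter. The 7 were lower in PC3 than in LNCAP, with GAGE1 at least 103-fold lower and the helicase gene DDX53 at least 17.6-fold lower. CT83 had no counts in PC3, 212 in DU145 and none in LNCAP, and XAGE1B had none, 19 and none. The reads of GAGE genes can be shared among copies. Of 20 autosomal cancer-testis genes 11 were compared, with 1 called higher and 3 lower in PC3 than in LNCAP, and 2 higher and 2 lower in DU145 than in LNCAP. The share called either way over all compared genes was 26.3% in PC3 and 25.8% in DU145. SPAG9, a scaffold gene also active outside the testis, was 9.27-fold higher in PC3 than in LNCAP (8.71 to 9.88). BRDT, a bromodomain gene of spermatogenesis, had no counts in PC3, 469 in DU145 and 28 in LNCAP. PRAME, a melanoma antigen gene, had 31.4, 27.4 and 68.4 CPM in PC3, DU145 and LNCAP and was not called.

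Of the MAGE relatives that the naming rule leaves out, 2 were listed, and the list may not be complete. NDN, the imprinted necdin gene near MAGEL2, had no counts in PC3 or DU145 and 536 in LNCAP, at least 175-fold lower in PC3 and at least 179-fold lower in DU145. NSMCE3, a MAGE subunit of the SMC5/6 complex that keeps chromosomes intact, had 22.2 CPM in PC3, 31.0 CPM in DU145 and 25.4 CPM in LNCAP. Of 7 genes of that complex none was called in PC3 against LNCAP, and SMC6 (5.63-fold, 5.00 to 6.34) and EID3 (7.48-fold, 4.56 to 13.0) were higher in DU145 than in LNCAP. Among all compared genes, 26.3% were called either way in PC3 and 25.8% in DU145 against LNCAP.

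Genes of ubiquitin ligases and other enzymes that work with MAGE proteins were mostly present in each line, and 14 were listed. Of 13 compared, none was called in either line against LNCAP, and their median log2 ratio was 0.11 in PC3 and -0.26 in DU145. Calls either way took in 26.3% of all compared genes in PC3 and 25.8% in DU145. TRIM28, the partner of MAGEA3, MAGEA6 and MAGEC2, had 748 CPM in PC3, 409 CPM in DU145 and 490.5 CPM in LNCAP. PJA1, the partner of MAGED1, had 51.4, 20.4 and 27.5 CPM. DCAF12, whose ligase marks MAGEA3 and MAGEA6 for degradation, had 57.2 CPM in PC3, 147 CPM in DU145 and 152 CPM in LNCAP.

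Genes of DNA methylation and chromatin silencing, the layer known to act on type I promoters, were compared as a list of 22. In PC3 against LNCAP 1 was called higher and none lower, and in DU145 against LNCAP 1 was higher and none lower. Over all compared genes, 26.3% and 25.8% were called either way in these comparisons. The median log2 ratio was 0.19 in PC3 and 0.16 in DU145. DNMT1, the maintenance methyltransferase gene, had 492 CPM in PC3, 484 CPM in DU145 and 217 CPM in LNCAP, 2.27-fold higher in PC3 (2.18 to 2.36) and 2.23-fold higher in DU145 (2.14 to 2.32). UHRF1, which guides that enzyme to DNA, had 152 CPM in PC3, 273 CPM in DU145 and 52.2 CPM in LNCAP, and was called higher in DU145 at 5.23-fold (4.85 to 5.64). TET1, an enzyme of demethylation, had 184 counts in PC3, 54 in DU145 and 44 in LNCAP and was called higher in PC3 at 4.28-fold (3.06 to 6.09). DNMT3B had 10.1, 9.19 and 11.3 CPM in PC3, DU145 and LNCAP. DNMT1, under 4-fold, was called in neither comparison with LNCAP. Any link between the levels of these genes and those of the type I genes was not tested.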

How the data were processed

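Per the labels' protocols, total RNA (4 ug) from TRIzol and column cleaning entered a standard Illumina preparation. The authors deposited gene counts without normalization. The authors also deposited FPKM values, each equal (within 0.1%) to the count divided by gene length and 1 constant per library. TopHat2 2.0.9, Cuffdiff 2.1.1, Bowtie2 2.0.6 and Cufflinks 2.1.1 are listed, per the submitters' processing notes, without roles. Not given in the sources used here is how reads were counted, on which strand and build. The 58735 identifiers all matched GENCODE 29, with the same start and end, so positions are on GRCh38.

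Counts were scaled by TMM (factors 0.998, 0.987 and 1.02 for PC3, DU145 and LNCAP; edgeR 4.0.16, R 4.3.3) over the 18025 genes at 1 CPM or more in a library. Ratios carry exact 95% conditional binomial intervals (scipy 1.17.1, Python 3.11.15), and log2 ratios have 0.5 counts added. Folds against 0 use 3 counts in that library and leave out the counting error of the other count, so they are no 95% bounds. For MAGEA12 in PC3 against DU145 the lower bound of the 95% interval was 1.75, under the 2.73-fold given. No fold is given where both had 3 or fewer. Since PCR copies cannot be told from separate molecules, intervals cover counting error only and compare libraries, not lines. The class test was edgeR's quasi-likelihood test, with DESeq2 1.42.0 and limma-voom (limma 3.58.1) as alternatives. Calls were also run on simulated counts, which checks the code only. In those for the class test, PC3 and DU145 had the same mean for each gene, unlike the real lines. Protein identity and shared words came from GENCODE transcripts (Biopython 1.88).

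Members, gene lists and tests were chosen with earlier results of these data known. Named were all members at 1 CPM or more in a library, up to 4 genes per list with the largest differences, those against their list, and the 6 highest neighbours. Neighbours called lower than in LNCAP were named after their values were seen. Other genes, such as TRIM28, PJA1, DCAF12, DDX53, DNMT1, DNMT3B and PRAME, were named for their role after their values were seen.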

Additional observations from a re-analysis of the deposited data

How the results depend on the processing

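Scaling by DESeq2 size factors or by total counts, a call on FPKM with 0.1 added, 5 added counts, no filter, and near copies summed kept each count of called members in the line comparisons within 1.5 times. At that limit, members higher in PC3 than in DU145 fell from 6 to 4 with 5 added counts, on FPKM, and with a 5 CPM filter. With a 5 CPM filter 1 member was called higher in PC3 against LNCAP, in place of 4, because members under 5 CPM were left out. With a 2-fold call 1 member (MAGEH1) was lower in PC3 than in DU145, in place of 0. Leaving out members that share 10% or more of their 50-base words, an alternative chosen after seeing the data, left fewer members to call: 1 higher and 4 lower in PC3 against LNCAP, 5 lower in DU145 against LNCAP, and 1 higher in PC3 against DU145. The 4 were MAGEA1, MAGEA4, MAGEC1 and MAGEC2. Of 309 log2 ratios of single members under the alternatives, 300 kept their call, 6 lost it, 3 gained it and none reversed. The 6 were MAGED4B in PC3 against LNCAP (1.90 on FPKM), MAGEA1 in PC3 against LNCAP (-1.92 with 5 added counts), MAGED4B in PC3 against DU145 (1.62 with 5 added counts, 1.40 on FPKM) and MAGEA12 in PC3 against DU145 (1.41 and 1.88). In the class test DESeq2 called 7 members and 1298 genes where edgeR called 0, limma-voom 0, and edgeR without TMM or without the filter 0; the cause was not tested. DESeq2 gave no adjusted p for 5 of the 18 members. Leaving out PC3 or DU145 from the class leaves no residual degree of freedom, so no test was run. No paired analysis was possible because each line has 1 library and the labels carry no replicate numbers. At these totals (15319045 to 15878546 counts), differences among members under about 3 counts were not detectable at this depth.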
